A study of Mus musculus with 12 samples.

Results

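Endoderm and organizer transcription factors were examined across 4 cell types sorted from mouse embryos at E7.25. The set was chosen by gene symbol and comprised the forkhead factors Foxa1, Foxa2 and Foxa3, the nuclear receptor Hnf4a and the homeodomain factors Hhex, Otx2, Lhx1, Gsc and Hesx1. These are 9 of the 38924 genes counted, and all 9 were found. All embryos came from 1 line, Foxa2Cre:Rosa26-YFP, in which Cre made under Foxa2 control switches on a yellow fluorescent protein (YFP) reporter, so that a cell and its descendants stay marked after Foxa2 itself has been turned off. The 4 types were YFP+ cardiac mesoderm, labelled ventricular, YFP- cardiac mesoderm, labelled non-ventricular, EPCAM+ endoderm and KDR+ hematopoietic mesoderm, with 3 libraries each. The labels name no drug or mutation and do not say how the Cre was inserted. The labels do not say whether embryos were pooled or whether the 3 libraries of a type came from separate litters, so the p-values measure only the spread between these libraries, which may be technical. The YFP gate rests on past Foxa2 activity, and Foxa2 is therefore not a marker chosen apart from the sort.

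At gastrulation the anterior primitive streak gives rise to definitive endoderm, to the node and its axial mesoderm, and to cardiac mesoderm. FOXA factors bind their sites in closed chromatin and are needed for endoderm, with FOXA2 also required for the node. HNF4A is the main nuclear receptor of visceral endoderm and later of liver. OTX2, LHX1 and GSC belong to the organizer and head-inducing network, in which LHX1 and OTX2 act together in anterior mesendoderm and visceral endoderm. HHEX marks anterior endoderm and is also made in blood and endothelial progenitors, and HESX1 is a repressor of the anterior endoderm and forebrain.

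On mouse build GRCm38, which is the same assembly as mm10, the 9 genes were protein coding and lay on 6 chromosomes. Foxa1 lay at chr12:57540628-57546916, Gsc at chr12:104471209-104473330, Foxa2 at chr2:148042877-148046969, Foxa3 at chr7:19013284-19023538, Otx2 at chr14:48657677-48673819 and Lhx1 at chr11:84518284-84525535, all on the minus strand. Hnf4a lay at chr2:163506808-163572910, Hhex at chr19:37434810-37440731 and Hesx1 at chr14:26994416-27002329, on the plus strand. Hnf4a had a pair of annotated starts 40298 bases apart, which counts per gene do not separate. An opposite-strand transcript, Otx2os1, shared 154 exon bases with Otx2, and whether counting used strand is not given in the sources used here.

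Of the 250 bases before each start in RefSeq (GRCm38.p6), stretches outside annotated exons are shown for 3 genes whose counts were nearly confined to endoderm and whose windows held a searched motif. The bases run 5′ to 3′ on the gene's own strand, and capitals mark the match. In Foxa1, at chr12:57546122-57546361 on the minus strand inside the gene's annotated span, the capitals are a forkhead motif. In Hnf4a, at chr2:163546943-163547154 on the plus strand before the downstream start, they are a pair of HNF1 half-sites. In Foxa3, at chr7:19023540-19023789 on the minus strand just before the gene, they are a TATA box.
Foxa1: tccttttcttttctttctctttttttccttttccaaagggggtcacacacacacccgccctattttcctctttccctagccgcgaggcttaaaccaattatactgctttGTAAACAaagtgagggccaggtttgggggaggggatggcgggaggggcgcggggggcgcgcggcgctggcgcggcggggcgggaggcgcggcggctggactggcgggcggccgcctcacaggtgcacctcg
Hnf4a: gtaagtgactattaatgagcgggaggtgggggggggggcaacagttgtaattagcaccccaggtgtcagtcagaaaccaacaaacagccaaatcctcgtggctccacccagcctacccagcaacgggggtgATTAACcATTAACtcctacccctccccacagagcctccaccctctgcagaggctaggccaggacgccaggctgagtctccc
Foxa3: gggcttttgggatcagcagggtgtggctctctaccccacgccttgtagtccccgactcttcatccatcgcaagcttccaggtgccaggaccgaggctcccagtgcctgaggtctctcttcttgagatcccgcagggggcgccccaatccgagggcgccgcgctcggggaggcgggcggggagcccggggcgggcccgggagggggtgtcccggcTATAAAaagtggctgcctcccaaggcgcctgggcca

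The forkhead letters TGTTTAC began 141 bases before the Foxa1 start, on the opposite strand. They occurred, on either strand, in 3.17% of 32851 windows of the same length and in 1 of the 15 windows of the 9 genes. The HNF1 half-site GTTAAT began 81 and 74 bases before the downstream Hnf4a start and 176 bases before an internal Foxa2 start. All of these HNF1 matches were on the opposite strand, and 6.43% of all windows held the half-site. The TATA letters TATAAA were in 4 of the 15 windows and in 12.4% of all windows. They lay 36 bases before the Foxa3 start, 208 before a Foxa2 start, 192 before an Otx2 start and 164 before the Gsc start. The Foxa2 match was on the opposite strand, and the strand of the Gsc match is not given here. Every share of windows here counts matches on either strand. A homeodomain motif, TAATCC, was in 6.25% of all windows and, among these genes, in 1 Otx2 window, which lay within an exon and is not shown. These matches describe letters only, and no binding was measured.

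Between 4472800 and 7888631 reads were counted in genes in each library. Levels are counts scaled to the library's gene total (CPM), and 1 count equalled 0.127 to 0.224 CPM. Sums over 12 markers each largely followed the labels. The cardiac list summed to 1737 to 1975 CPM in YFP+ and 1597 to 1732 in YFP- cardiac mesoderm, the endoderm list to 3443 to 7211 in endoderm, and the hematopoietic and endothelial list to 2229 to 2837 in hematopoietic mesoderm. Kdr, the surface marker of the hematopoietic sort, was also at 454 to 606 CPM in the 6 cardiac libraries, against 617 to 880 in the hematopoietic ones. A list of 10 epiblast and neurectoderm markers summed to 477 to 605 CPM in YFP+, 339 to 593 in YFP- and 351 to 483 in hematopoietic libraries. In endoderm the same sum was 1320 to 1387 CPM. The endoderm libraries thus held some epiblast and node transcripts as well. Utf1 was at 114 to 124 CPM there, Six3 at 28.5 to 40.8, Foxj1 at 61.7 to 102 and Chrd at 51.7 to 88.6. Some other markers of the same lists were low there: Shh was at 11.7, 0.275 and 0.254 CPM, Nog at 0.254 to 1.67 and Sox3 at 0.669 to 4.56. T averaged 187 CPM in endoderm and 264 in hematopoietic mesoderm, and Nog 1.15 in endoderm and 4.23 in YFP+ cardiac mesoderm. Hematopoietic replicate 3 differed from the other 2, with Gata1 and Gfi1b at 1 count each, Hbb-bh1 at 0 and a cardiac list sum of 1156 CPM, against 450 and 520 in replicates 1 and 2. Of the 12 hematopoietic and endothelial markers it was the lowest for 7 and the highest for 3, Kdr, Etv2 and Sox7. Hba-x and Hes3 were at 0 in all 12 libraries. In bulk libraries fewer cells of a type and less RNA per cell cannot be told apart, for every value given here.

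**Figure D1:**
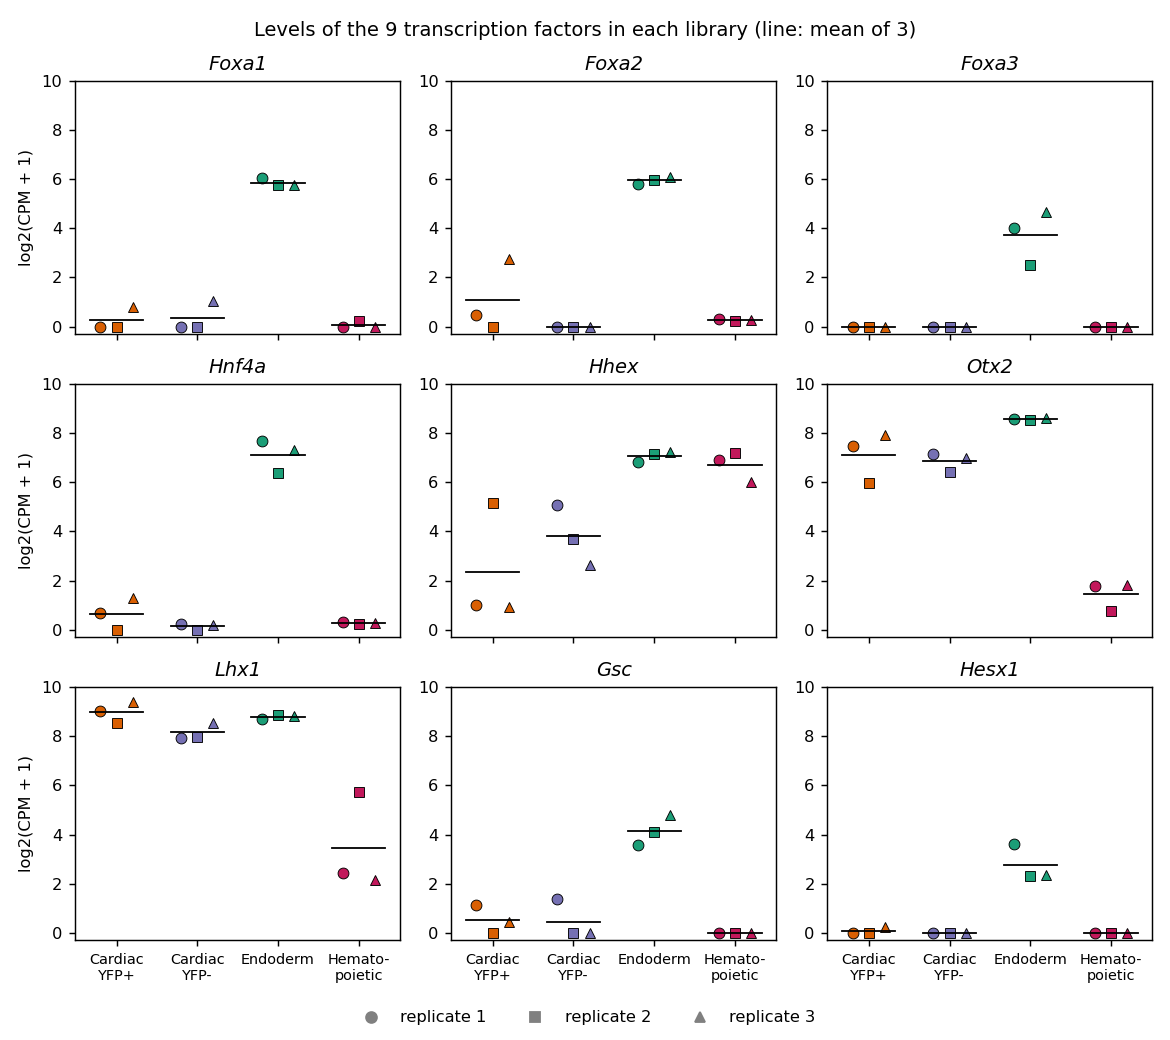
Level of each factor in each of the 12 libraries, as log2(CPM + 1) by cell type; symbols mark replicates 1 to 3 and the line is the mean of 3. The endoderm libraries lie above the other 9 libraries for 7 factors, and the hematopoietic libraries lie below the other 9 for Otx2 and Lhx1.

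The 9 factors fell into 3 patterns by level. Foxa1, Foxa2, Foxa3, Hnf4a, Gsc and Hesx1 were near 0 outside endoderm. Otx2 and Lhx1 were high in endoderm and in both cardiac fractions and low in hematopoietic mesoderm, and Hhex was high in endoderm and hematopoietic mesoderm and lower in the cardiac fractions. For 7 of the 9, all but Hhex and Lhx1, the 3 endoderm libraries lay above all 9 others, as they did for 7.28% of the 14170 genes tested. The plot of levels by library shows these patterns.

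The forkhead factors came first. Foxa2, which the reporter line reads, was at 55.1, 62.5 and 66.4 CPM in endoderm replicates 1, 2 and 3. It was at 0 in the 3 YFP- libraries, at 1 count in each hematopoietic library, and at 0.4, 0 and 5.72 CPM in YFP+ replicates 1, 2 and 3. The YFP+ counts thus came mostly from replicate 3, and the endoderm libraries overlapped no other type. Summed over libraries, Foxa2 was at least 404-fold higher in endoderm than in YFP- cardiac mesoderm, where 0 counts were set to a floor of 3 over the group. It was 29.5-fold higher than in YFP+ cardiac mesoderm (counting interval 21 to 42.8) and 321-fold higher than in hematopoietic mesoderm (109 to 1556).

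Foxa2 passed the edgeR quasi-likelihood test, with Benjamini-Hochberg adjustment over all 14170 genes and a threshold of 0.05, against YFP- cardiac mesoderm (adjusted p = 0.0233) and hematopoietic mesoderm (adjusted p = 0.0294). Both calls were lost on leaving out any 1 of the 6 libraries compared, with adjusted p up to 0.105 in each. Against YFP+ cardiac mesoderm it did not pass (adjusted p = 0.137). Without YFP+ replicate 3 that adjusted p was 0.0454. Its log2 fold change, YFP+ minus endoderm, went from -4.76 with all libraries to -8.03 without that one. The 12 endoderm markers gave no single order there: replicate 3 was the highest YFP+ library for 6, among them Cdh1 at 57.2 CPM and Epcam at 38.1, and the lowest for 3, among them Krt8 at 3.93. Their sum was 413, 356 and 339 CPM in YFP+ replicates 1, 2 and 3, lowest in replicate 3. Dab2 alone was at 199, 202 and 143 CPM there, and at a mean of 141 in YFP- cardiac mesoderm, where Foxa2 was at 0. Replicate 3 was also the highest YFP+ library for all 6 axial mesoderm and node markers, though Noto and Shh were at only 0.179 CPM. Of the 10 epiblast and neurectoderm markers it was the highest for 5 and the lowest for 1. The part of endoderm, node or epiblast transcripts in its Foxa2 counts was not tested.

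Foxa1, which shares the forkhead domain of Foxa2 and acts with it in gut and liver, was in endoderm at 66.1, 53.2 and 53.5 CPM. It was at 0 in 6 of the 9 other libraries and at 0.171 to 1.04 CPM in the remaining 3. The ratio to endoderm was 231-fold for YFP+ cardiac mesoderm (counting interval 90.0 to 850), 160-fold for YFP- (77.2 to 398) and 886-fold for hematopoietic mesoderm, which held 1 count (159 to 35021). The groups did not overlap in any of these pairs, yet only the last passed edgeR's test (adjusted p = 0.0252). That call was lost without any 1 endoderm library and without hematopoietic replicate 1 (adjusted p up to 0.0929). Adjusted p was 0.0629 against YFP+ and 0.0807 against YFP- cardiac mesoderm.

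Foxa3, the third member of the family, was at 15.2, 4.68 and 24.6 CPM in endoderm and at 0 in all 9 mesoderm libraries. Its endoderm level was at least 81.6-fold above YFP+ cardiac mesoderm, at least 98.7-fold above YFP- and at least 78.2-fold above hematopoietic mesoderm, by the same floor of 3 counts. In none of these pairs did it pass edgeR's test, with adjusted p = 0.0937, 0.105 and 0.0535. Its highest endoderm library was 5.26-fold above its lowest, the widest such spread of the 9 factors, which for the other 8 was 1.06- to 2.81-fold.

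Per kilobase of exon, Foxa2 made up 45.9%, 59.0% and 49.9% of the summed Foxa level in endoderm replicates 1, 2 and 3. Foxa1 made up 39.3%, 35.8% and 28.6%, and Foxa3 14.8%, 5.14% and 21.5%. The order Foxa2, Foxa1, Foxa3 held in each of the 3 libraries.

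Hnf4a was the only one of the 9 factors called higher in endoderm than in each of the other types, as 0.303% of all genes were. It was at 206, 82.6 and 157 CPM in endoderm (149 ± 62.2, SD, n = 3), at 0.6, 0 and 1.43 in YFP+ cardiac mesoderm, at 0.174, 0 and 0.148 in YFP- cardiac mesoderm, and at 1 count in each hematopoietic library. Every endoderm library lay far above the other 9. By edgeR the log2 fold change of endoderm over YFP+ cardiac mesoderm, taken as endoderm minus the other type, had a size of 7.60 with SE 1.09 and adjusted p = 0.00313. The pooled counts gave 214-fold (counting interval 120 to 430), and 1425-fold over the 2 counts of YFP- cardiac mesoderm (394 to 11769, adjusted p = 0.00114). Over the 3 counts of hematopoietic mesoderm the ratio was 753-fold (258 to 3655, adjusted p = 0.00123). Hnf4a kept these 3 calls in each of the 13 alternative fits of a pair.

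Gsc, the homeobox gene of the organizer, was at 11.0, 16.4 and 26.6 CPM in endoderm and at 0 in the 3 hematopoietic libraries. In YFP+ cardiac mesoderm it was at 1.20, 0 and 0.358 CPM, and in YFP- at 1.56, 0 and 0. Endoderm was 37.9-fold above YFP+ (counting interval 19.1 to 88.4), 40.7-fold above YFP- (21.2 to 89.7) and at least 96.9-fold above hematopoietic mesoderm. No pair passed edgeR's test, with adjusted p of 0.257, 0.373 and 0.0562 for endoderm against YFP+, YFP- and hematopoietic cells.

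Hesx1 was at 11.2, 3.99 and 4.06 CPM in endoderm. Outside endoderm it had 1 count in all, in YFP+ replicate 3. Endoderm was at least 39.6-fold above YFP- cardiac mesoderm and at least 31.4-fold above hematopoietic mesoderm, and 98.3-fold above YFP+ with its 1 count (counting interval 17.3 to 3912). Again the libraries did not overlap and no pair passed edgeR's test (adjusted p = 0.130 for YFP+, 0.0985 for YFP- and 0.0518 for hematopoietic mesoderm).

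Otx2 separated the hematopoietic libraries from all others. It was at 381, 368 and 390 CPM in endoderm, at 177, 62.3 and 244 in YFP+ cardiac mesoderm, at 140, 84.4 and 126 in YFP- cardiac mesoderm and at 2.46, 0.683 and 2.49 in hematopoietic mesoderm. The endoderm libraries were the highest and differed little among themselves, the cardiac fractions overlapped each other, and the hematopoietic libraries were lowest. By edgeR Otx2 was higher than in hematopoietic mesoderm by a log2 fold change of 7.49 in endoderm (SE 0.61, adjusted p = 2.82e-05), 6.39 in YFP+ (SE 0.59, adjusted p = 0.000472) and 5.84 in YFP- cardiac mesoderm (SE 0.58, adjusted p = 0.000958). From pooled counts these were 211-, 89.0- and 64.0-fold. The 2 cardiac calls were lost in a limma voom fit with library weights (adjusted p = 0.152 and 0.117).

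Endoderm exceeded the cardiac fractions in Otx2 by 2.37-fold (YFP+) and 3.30-fold (YFP-) without overlap of libraries. Neither difference passed edgeR's test (adjusted p = 0.236 and 0.108). Between the cardiac fractions Otx2 was at 161 ± 91.7 CPM (SD, n = 3) in YFP+ and 117 ± 29.0 in YFP-, and those libraries overlapped.

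Lhx1, a LIM-homeodomain factor that works through the adaptor LDB1, was at 525, 376 and 666 CPM in YFP+ cardiac mesoderm and 247, 251 and 377 in YFP-. It was at 419, 467 and 453 in endoderm and at 4.47, 52.2 and 3.45 in hematopoietic mesoderm. Lhx1 was thus the only factor of the 9 whose highest mean was in a cardiac fraction, although the YFP+ and endoderm libraries overlapped. YFP- replicate 3, at 377 CPM, lay just above YFP+ replicate 2, at 376, so that the cardiac fractions overlapped as well. The ratio of YFP+ to YFP- was 1.78-fold, with log2 fold change 0.92 (SE 0.66, edgeR adjusted p = 0.848).

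Lhx1 passed edgeR's test against hematopoietic mesoderm in all 3 other types. The log2 fold change was 4.70 for YFP+ (SE 0.78, adjusted p = 0.0120), 3.77 for YFP- (SE 0.75, adjusted p = 0.0415) and 4.33 for endoderm (SE 0.76, adjusted p = 0.00770). Hematopoietic replicate 2 held 52.2 CPM against 4.47 and 3.45 in replicates 1 and 3. Without it these values were 6.98, 6.06 and 6.62, with adjusted p = 2.78e-06, 9.40e-06 and 1.45e-06. The YFP- call was lost with the replicate number as a block (adjusted p = 0.0646), without any 1 YFP- library or hematopoietic replicate 1 (up to 0.137), and in fits of only those types and with limma voom (up to 0.171). The YFP+ call was lost in the latter 2 fits (up to 0.18).

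Hhex followed neither of these patterns. It was at 112, 141 and 151 CPM in endoderm and at 118, 145 and 64.4 in hematopoietic mesoderm, and these overlapped. It was at 0.999, 35.2 and 0.894 CPM in YFP+ cardiac mesoderm and at 33.2, 12 and 5.19 in YFP-. Both cardiac fractions lay below both other types without overlap, by 10.6- and 8.60-fold against endoderm and 8.58- and 6.94-fold against hematopoietic mesoderm. None of these 4 differences passed edgeR's test (adjusted p = 0.157, 0.297, 0.16 and 0.218). Endoderm and hematopoietic mesoderm differed by a log2 fold change of 0.14 (SE 1.03, adjusted p = 0.959), an error too wide to show that they were alike.

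The YFP+ spread of Hhex came from replicate 2. Of the 12 hematopoietic and endothelial markers, 9 were highest in that YFP+ library, among them Tal1 at 170 CPM against 13.2 and 21.3, and Runx1 at 94.0 against 4.60 and 22.2. Etv2 was instead highest in replicate 3, at 65.3 CPM against 28.1 in replicate 2, and 2 markers were at 0 in all 3 libraries. Their sum was 989 CPM in replicate 2, against 526 and 574. Without that library Hhex passed edgeR's test in YFP+ cardiac mesoderm against endoderm (adjusted p = 0.00356) and against hematopoietic mesoderm (adjusted p = 0.00605). The log2 fold changes, YFP+ minus the other type, then went from -3.32 to -6.98 and from -3.17 to -6.84. The part of such cells or transcripts in the Hhex level of YFP+ replicate 2 was not tested. In YFP- cardiac mesoderm Hhex was instead highest in replicate 1, and the sum of these markers was highest in replicate 2. That sum was 685, 752 and 589 CPM in YFP- replicates 1, 2 and 3.

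**Figure D2:**
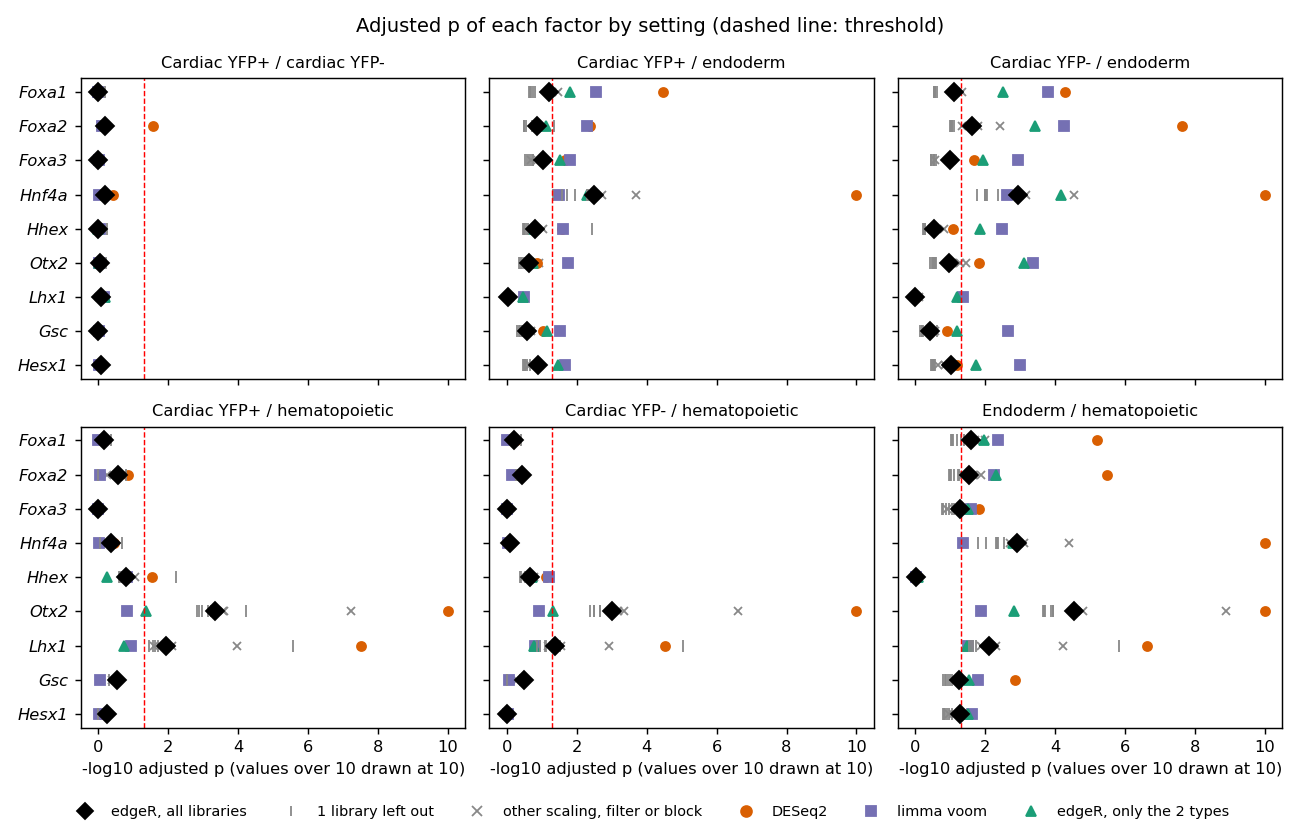
Minus log10 of the adjusted p of each factor in the 6 pairs of cell types; diamonds are edgeR on all 12 libraries, other symbols are alternative fits, and the dashed line is the threshold of 0.05. Hnf4a lies past the line in every fit of the 3 endoderm pairs, while DESeq2 and limma voom differ widely from edgeR for many other factors.

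Taking the pairs in turn, 0 of the 9 factors passed edgeR's test between YFP+ and YFP- cardiac mesoderm, where 0.0% of all genes did. At an unadjusted p under 0.05 there were 2, Foxa2 and Hnf4a, against 7.49% of all genes. DESeq2 called 1, Foxa2 (adjusted p = 0.0276), and limma voom 0. Over all genes DESeq2 also called more than edgeR in this pair, with totals given at the end. The YFP+ libraries held 34 Foxa2 counts against 0, a ratio of at least 13.7, but YFP+ replicate 2 also had 0. None of the 9 separated the 2 fractions without overlap, as 11.8% of all genes did.

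Against endoderm, 1 of 9 passed in YFP+ cardiac mesoderm, Hnf4a, with 1.54% of all genes called. In YFP- cardiac mesoderm 2 passed, Foxa2 and Hnf4a, with 1.31% of all genes called. All were higher in endoderm, a direction in which 0.586% and 0.6% of all genes were called. By non-overlap of libraries, 8 of 9 were higher in endoderm than in YFP+ (all but Lhx1) and 9 of 9 higher than in YFP-, against 22.1% and 18.4% of all genes in that direction. Foxa1, Foxa3, Hhex, Otx2, Gsc and Hesx1 separated from both cardiac fractions without overlap and passed edgeR's test against neither. DESeq2 called 5 of the 9 factors in each of these pairs, and limma voom 8 in the YFP+ and 9 in the YFP- pair. Both tools also called many more of all genes than edgeR there, with totals given at the end. Their counts are therefore not to be set against edgeR's shares.

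Against hematopoietic mesoderm, Otx2 and Lhx1 passed in YFP+ cardiac mesoderm, where 1.79% of all genes were called. The same 2 factors passed in YFP- cardiac mesoderm, where 0.593% were called. In endoderm 5 of 9 passed, Foxa1, Foxa2, Hnf4a, Otx2 and Lhx1, with 5.65% of all genes called. All were lower in hematopoietic mesoderm, a direction in which 1.15%, 0.402% and 3.23% were called in these 3 pairs. For Otx2 and Lhx1 the hematopoietic libraries lay below all 9 others, as for 3.94% of all genes. Both were called lower there than in each other type, as 0.318% were. The pairs share libraries, so these counts are not separate evidence. The plot of adjusted p by setting shows each factor in each pair.

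**Figure D3:**
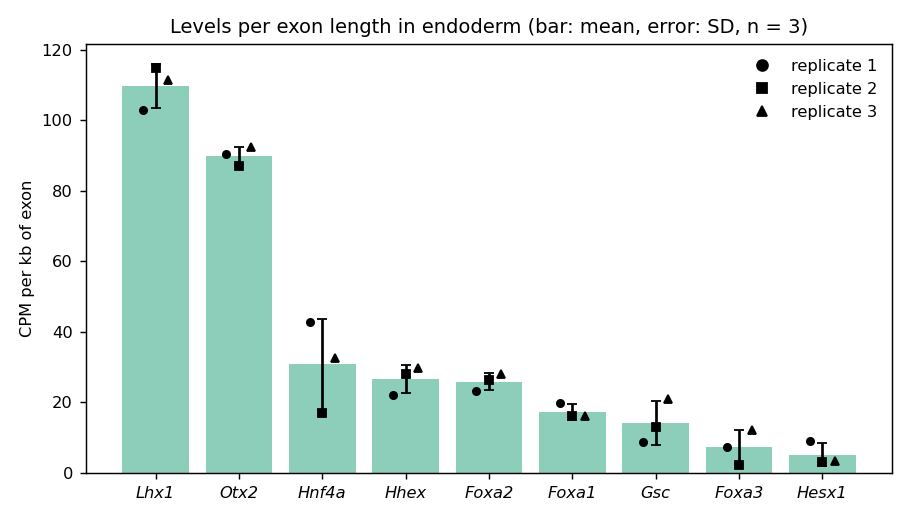
Level of each factor in endoderm as CPM per kilobase of exon; bars are means of 3 libraries, error bars the SD and symbols the libraries. Lhx1 and Otx2 stand above the other 7 factors.

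Among themselves, the factors were compared in endoderm per kilobase of annotated exon. Lhx1 was highest, at 110 ± 6.15 CPM per kilobase (SD, n = 3), then Otx2 at 89.9 ± 2.60, with no overlap between them or with the next. Hnf4a at 30.8 ± 12.9, Hhex at 26.6 ± 4.02 and Foxa2 at 25.9 ± 2.44 overlapped one another. Foxa1 at 17.3 ± 2.21 came below Foxa2 without overlap. Gsc at 14.2 ± 6.24, Foxa3 at 7.28 ± 4.89 and Hesx1 at 5.14 ± 3.33 followed, each overlapping its neighbour in that order. The plot of endoderm levels per exon length shows this order, which takes all annotated exons as the length.

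The endoderm libraries were close to one another for some factors and not for others. Relative to the endoderm mean, Otx2 lay between 0.969 and 1.03, Lhx1 between 0.938 and 1.05 and Foxa2 between 0.898 and 1.08. Hnf4a was at 1.39, 0.556 and 1.06 in replicates 1, 2 and 3, and Hesx1 at 1.75, 0.622 and 0.632. Foxa3 was at 1.03, 0.315 and 1.66, and Gsc at 0.613, 0.909 and 1.48. Replicate 2 was thus lowest for Hnf4a and Foxa3, replicate 1 was highest for Hnf4a and Hesx1, and Gsc was lowest in replicate 1.

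The sum of a list of 22 visceral endoderm genes and HNF targets had the same order of replicates as Hnf4a. It was at 7279, 2902 and 4467 CPM, or 1.49, 0.594 and 0.915 of its mean. Most of it came from Apob, Dab2 and Cubn, an endocytic receptor of visceral endoderm. Apob was at 2655, 1099 and 1582 CPM, Dab2 at 1152, 545 and 765, and Cubn at 1575, 328 and 793. Afp, a secreted protein of the same tissue, was at 193, 44.4 and 92.7. Not all members had this order: Amn was at 36.1, 10.6 and 37.8 CPM and Spink1 at 132, 98.4 and 96.5. The definitive endoderm list varied less, at 1.10, 0.963 and 0.938 of its mean. The list of anterior signalling antagonists was nearly constant, at 2160, 2137 and 2142 CPM. With 3 libraries this is a description of their order and carries no test. The plot of the endoderm spread sets these beside each other.

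**Figure D4:**
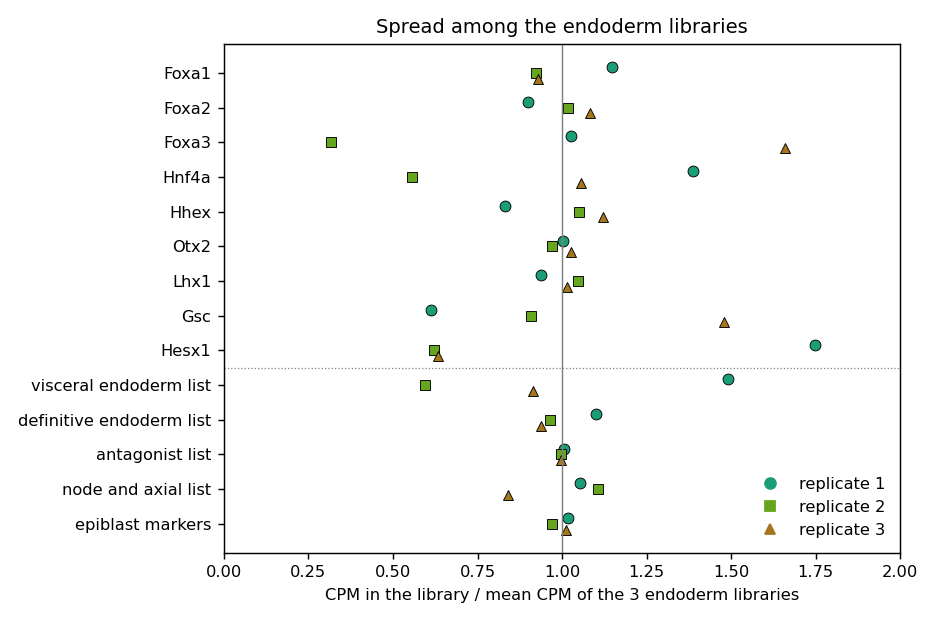
Level of each factor, and of 5 summed gene lists, in each endoderm library divided by the mean of the 3; symbols and colours mark replicates 1 to 3. Foxa3, Hnf4a, Gsc and Hesx1 and the visceral endoderm list spread widely, while Otx2, Lhx1 and the antagonist list stay near 1.

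Genes with the nearest patterns over the 12 libraries were found by the root mean square difference of centred log2(CPM + 1) among 11194 genes, as a description. Near to Hnf4a were Tmprss2 at 0.32 and Ttr at 0.34. Nearest to Foxa1 were the myosin motors Myo5b at 0.18 and Myo5c at 0.36. Foxa2 was nearest to Spink1 at 0.36, Enpp3 at 0.38 and Miat at 0.44, and Foxa3 to Pnma5 at 0.14. Gsc was nearest to Moxd1 at 0.40, Npnt at 0.42 and Gckr at 0.45.

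For the factors shared with mesoderm, the distances to the nearest patterns were larger. The distance was not scaled to each gene's spread, and libraries in which both genes were nearly absent can add little to it. Factors nearly confined to endoderm can therefore have small distances for that reason alone. The sizes do not show which kind of factor had the closer patterns. Otx2 had Slco5a1 at 0.72 and Frzb, a secreted Wnt antagonist, at 0.76, and near to Lhx1 were Fignl2 at 0.67 and Sema5a at 0.73. Hhex had no gene under 1, with A930009A15Rik at 1.05 and Nfatc2 at 1.08. Hesx1 stayed under 10 CPM in every type on average and was not ranked.

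Genes that act with or beside these factors were taken from lists whose members partly overlap. The lists were chosen from general knowledge, with earlier results of these data known. Genes nearly absent outside endoderm passed the expression filter through the endoderm libraries. Higher levels in endoderm were therefore likely beforehand for the endoderm lists. The counts and medians below describe the lists and are not a test of them. Of the visceral endoderm and HNF target list, 18 of 22 genes were tested. By edgeR 8 were higher in endoderm than in YFP+ cardiac mesoderm and 1, Gata4, lower, 8 were higher than in YFP-, and 9 were higher than in hematopoietic mesoderm with 1, Sox7, lower. Over all genes, 0.586%, 0.6% and 3.23% were called higher in endoderm in these 3 pairs, which is the background for the lists that follow as well. The median log2 fold change, type minus endoderm, was -5.83 in YFP+ and -5.62 in YFP- (-5.37 with genes at 0 set to their bound), against 0.01 over all genes in each. Afp was at 110 ± 75.7 CPM (SD, n = 3) in endoderm and 0.557 ± 0.360 in YFP+ (adjusted p = 0.00681). In YFP-, Cubn was at 1.03 ± 0.168 CPM against 899 ± 630 in endoderm (adjusted p = 6.13e-05). Apom, an apolipoprotein, was at 23.6 ± 16.7 CPM in endoderm and 0 in hematopoietic mesoderm (adjusted p = 0.0203).

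Of the definitive endoderm list, 15 of 18 genes were tested. By edgeR 6 were higher in endoderm than in YFP+ (0.586% of all genes), 7 than in YFP- (0.6%) and 6 than in hematopoietic mesoderm (3.23%). EdgeR called 0 lower in endoderm, while limma voom called 1 lower in each cardiac pair. The medians were -4.61, -6.41 and, as endoderm minus hematopoietic, 4.07. Over all genes the last median was 0.07. The serine protease gene Tmprss2 was at 141 ± 28.6 CPM in endoderm and 0.417 ± 0.575 in YFP+ (edgeR adjusted p = 0.00599). Calca, the calcitonin gene, was at 31.9 ± 15.2 CPM against 1 count in YFP+ (edgeR adjusted p = 0.0390).

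All 12 anterior signalling antagonists were tested. By edgeR 3 were higher in endoderm than in YFP+ (0.586% of all genes), 3 than in YFP- (0.6%) and 6 than in hematopoietic mesoderm (3.23%). EdgeR called 0 lower in endoderm, while DESeq2 and limma voom each called 1 lower in each cardiac pair. The medians were -3.27, -4.19 and 4.85. Cer1, a secreted inhibitor of Nodal, BMP and Wnt signals, was at 431 ± 63.5 CPM in endoderm and 3.69 ± 1.18 in YFP- (edgeR adjusted p = 0.000135). The Wnt receptor gene Fzd5 was at 517 ± 49.3 CPM in endoderm and 12.4 ± 3.8 in YFP+ (edgeR adjusted p = 0.00195). Frzb was at 103 ± 10.7 CPM in endoderm and 0.771 ± 0.814 in hematopoietic mesoderm (edgeR adjusted p = 0.00210).

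Of the node and axial mesoderm list, 15 of 16 genes were tested. By edgeR 2 were higher in endoderm than in YFP+ (0.586% of all genes), 3 than in YFP- (0.6%) and 6 than in hematopoietic mesoderm (3.23%). EdgeR called 0 lower in endoderm, while DESeq2 and limma voom each called 1 lower in each cardiac pair. The medians were -2.50, -2.07 and 5.39 (the last 5.09 with genes at 0 set to their bound). Foxj1, the regulator of motile cilia in the node, was at 85.5 ± 21.1 CPM in endoderm. It was at 0.483 ± 0.364 in YFP+ (edgeR adjusted p = 0.0123) and 0 in YFP- (edgeR adjusted p = 0.00320). Chrd, a BMP antagonist of the organizer, was at 70.3 ± 18.5 CPM in endoderm and 0.186 ± 0.179 in YFP+ (edgeR adjusted p = 0.0184). Gsc and Foxa2 are also made in the node, and the part of node cells in their endoderm level was not tested. The part of epiblast or neurectoderm transcripts in the endoderm levels of Otx2 and Hesx1 was not tested either. Of the calls given with a p for these lists, those of Cer1, Fzd5 and Frzb, and of Foxj1 against YFP-, held in every alternative fit (adjusted p up to 0.0339). The others were lost in at least 1, with adjusted p up to 0.0562 for Tmprss2 and 0.479 for Cubn.

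The LIM and Groucho cofactors are partners of LHX1, HESX1 and GSC. Of 12 tested, edgeR called 0 between endoderm and either cardiac fraction, where 1.54% (YFP+) and 1.31% (YFP-) of all genes were called. At an unadjusted p under 0.05 there were 3 in each pair, against 15.8% and 10.3% of all genes. DESeq2 called 3 and 0, and limma voom 2 and 4, in the YFP+ and YFP- pairs. Both tools also called many more of all genes than edgeR in these pairs. Lmo2, which binds LDB1 in blood progenitors, was higher in hematopoietic mesoderm than in endoderm, with 103 to 238 CPM against 6.19 to 12.9. Tle3, a Groucho co-repressor, was at 373 ± 20.1 CPM in YFP- and 188 ± 17.0 in YFP+ cardiac mesoderm, without overlap (edgeR adjusted p = 0.626). Of 14 paralogs and related factors, 5 were tested and 0 passed edgeR's test between endoderm and either cardiac fraction, with 2 and 1 at an unadjusted p under 0.05 against the same 15.8% and 10.3%. DESeq2 called 0 and 0 of them, and limma voom 0 and 2. Otx1, the paralog of Otx2, was at 14.2 to 20.6 CPM in endoderm and at 0.6, 23.4 and 7.87 CPM in YFP+ cardiac mesoderm.

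Between the cardiac fractions 0 genes of these 6 lists passed edgeR's test, against 0.0% of all genes, while DESeq2 called 5 and limma voom 0. Over all genes DESeq2 also called more than edgeR in this pair. At an unadjusted p under 0.05 there were 3 of 18 tested in the visceral endoderm list, 2 of 15 in the definitive endoderm list, 4 of 12 antagonists, 2 of 15 in the node list, 3 of 12 cofactors and 2 of 5 paralogs, against 7.49% of all genes. Cer1 was at 30.0, 10.1 and 65.5 CPM in YFP+ and 2.43, 4.78 and 3.86 in YFP- cardiac mesoderm, so that the libraries did not overlap (edgeR adjusted p = 0.479). Sfrp1, a secreted Wnt antagonist, was at 284 ± 76.7 CPM in YFP+ and 33.1 ± 13.2 in YFP- (edgeR adjusted p = 0.626). Dand5, a Nodal antagonist of the node, was at 0 in YFP+ and 6.85 ± 3.51 CPM in YFP- (edgeR adjusted p = 0.626). Apob, an apolipoprotein gene, was at 31.5 ± 25.1 and 3.56 ± 0.676 CPM (edgeR adjusted p = 0.479).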

How the data were processed

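RNA was purified and amplified with low-input kits, per the labels' protocols. The deposited values were raw read counts per gene, not normalized, for 38924 genes and 5 summary categories, 1 file per library. STAR 2.5.0a, Picard, HTSeq 0.6.0, DESeq2 and build mm10 are named in the submitters' processing notes, and the annotation and strand setting are not given in the sources used here. Genes took 18.3% to 21.5% of tallied reads, and the unassigned reads, 78.5% to 81.7%, were left out of library sizes. Symbols were found for 37607 genes. Positions, exon lengths and overlaps came from GENCODE M21.

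Levels are CPM, counts scaled to the library's total gene count. Differences were tested with edgeR 4.0.16 in R 4.3.3, with TMM scaling. The default expression filter kept 14170 genes, all 9 factors among them. A quasi-likelihood fit of all 12 libraries was tested two-sided for the 6 pairs of types. It had 8 residual degrees of freedom as the median over genes, and genes at 0 throughout a type can have fewer. Each SE is the size of the log2 fold change divided by the square root of the test's F. Folds are ratios of pooled counts, and a group at 0 was set to 3 counts over the group. Intervals are exact 95% ones and cover counting error only, since amplified reads are not independent molecules. The 3-count floor equals 0.380 to 0.671 CPM per library. Alternatives were RLE scaling, no filter, a mean of at least 5 CPM, a replicate block, DESeq2 1.42.0, limma 3.58.1 voom with quality weights, only the 2 types compared, and leaving out each library. The procedure was also run on simulated data, in which only genes with sizeable mean counts in all types were raised in endoderm. That run does not cover factors near 0 outside endoderm.

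Replicate numbers come from the titles, and each number goes with a single date written on the deposited files of all 4 types, whose meaning is not stated. Deviations from type means correlated at 0.0139 on average between libraries of the same number (-0.0177 to 0.0319), and 0 of 18 pairs were over 0.1. The mean for other numbers, -0.00694, follows from centring each type on its 3 libraries and is not a separate comparison. The factors and lists were chosen with earlier results of these data known. Of each list, the text names the 2 genes of largest change among those called with at least 10 CPM, or else the lowest p, and the 3 nearest patterns. Otx1 and the marker genes named for single libraries were chosen after their values were seen. Some genes that this rule names are not reported here.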

Additional observations from a re-analysis of the deposited data

How the results depend on the processing

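Counts of the 9 factors called depended on the fit. DESeq2 called 1 between the cardiac fractions, 5 for YFP+ and 5 for YFP- cardiac mesoderm against endoderm, and 8 for endoderm against hematopoietic mesoderm. Limma voom called 8, 9 and 8 in the latter 3 pairs and 0 in both cardiac pairs with hematopoietic mesoderm. Fits of only the 2 types called 4, 7 and 8 in the endoderm pairs and 1 in each cardiac pair with hematopoietic mesoderm, where 3 factors were tested. With no filter, 2 and 4 were called for YFP+ and YFP- against endoderm. The replicate block left 1 for YFP- against hematopoietic mesoderm and changed no other call of the 9 factors. Leaving out 1 library gave 0 to 0 between the cardiac fractions, 1 to 2 and 1 to 1 for YFP+ and YFP- against endoderm, and 2 to 3, 1 to 2 and 3 to 4 for YFP+, YFP- and endoderm against hematopoietic mesoderm.

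All genes called, in the order YFP+ to YFP-, YFP+ and YFP- to endoderm, and YFP+, YFP- and endoderm to hematopoietic mesoderm, numbered 0, 218, 185, 253, 84 and 800. DESeq2 gave 229, 1178, 735, 1809, 1352 and 2188, limma voom 0, 1130, 1812, 18, 95 and 1225, and only the 2 types 0, 1063, 1360, 13, 10 and 1258. The replicate block gave 133 for YFP+ and 31 for YFP- against hematopoietic mesoderm. With no filter the latter was 174, and with a mean of 5 CPM 133.

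Sign changes touched only uncalled log2 fold changes. Between the cardiac fractions, YFP+ minus YFP-, Foxa1 was at -0.42 with all libraries. Fits leaving out 1 library ranged from -4.15 to 3.68, and limma voom gave 0.0041. Such fits ranged from -1.33 to 4.73 for Gsc (0.107 with all libraries) and from -4.03 to 0.59 for Hhex (-0.358). Against hematopoietic mesoderm, Foxa1 ranged from -2.06 to 3.72 in YFP+ (1.67 with all libraries) and from -2.02 to 4.14 in YFP- (2.09). Foxa2 ranged from -0.027 to 3.83 in YFP+ (3.24 with all libraries), and Hhex from -0.11 to 0.36 in endoderm (0.144). The cause of these changes was not tested. A count of 0 allows up to 3 counts, or 0.671 CPM in the shallowest library.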
